A study of Mus musculus with 4 samples.

Results

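DNA repair and damage checkpoint genes are the 39 genes of the pathways that mend breaks, mismatches and damaged bases and of the kinases that halt the cell cycle meanwhile. They were taken by symbol from the table of all probe sets, and 38 of the 39 were measured on a probe set of their own, among 12394 genes in all. The rule that took them used no difference between the groups, but the members were chosen with earlier results of these data known.

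The study used Affymetrix arrays on cultured marrow from Mll-AF4stop knock-in mice. The cells of both groups carried the knock-in construct, which encodes the leukaemic MLL-AF4 fusion behind a stop that Cre recombinase removes, and came from mice given 5-fluorouracil (5-FU) 5 days before infection. The Cre-GFP group (2 arrays) received a retrovirus carrying Cre and GFP, and the control group (2 arrays) a retrovirus called a GFP control in the sample labels. The series text calls that control virus MIG-Cre, and a control virus with Cre would have activated the fusion in both groups. Only the Cre-GFP virus carried Cre by the sample labels, so the presence of Cre and the active fusion cannot be told apart. Sorting for GFP+ followed 2 days later, and lymphoid culture then lasted 14 days. The labels give no strain, age, sex or number of mice and do not say if 1 or more cultures stand behind a group, so the spread behind every p-value is that of these 4 arrays and may be technical.

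Cells repair DNA by several routes. Homologous recombination copies an intact sister strand into a break, with Brca1 and Brca2 among its factors, and the Fanconi proteins act in crosslink repair. Base excision repair cuts out single damaged or deaminated bases, nucleotide excision repair removes bulky lesions such as ultraviolet photoproducts, and mismatch repair corrects copying errors. The kinases Atm and Atr sense breaks and stalled forks and signal through Chek2 and Chek1. Many of these genes are most active in dividing cells, and 5-FU itself puts uracil and fluorouracil into DNA, which are substrates of base excision repair.

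The promoter bases of Mbd4, Apex1 and Atr are shown because these were the 3 members with an unadjusted p under 0.05 in limma. Each run ends at the base before the RefSeq start of the gene on its own strand (build GRCm38.p6). For Apex1 only the 55 bases between its start and that of the oppositely oriented gene Osgep are given. Capitals mark exact matches to GGGCGG (GC box), CCAAT or CACGTG (E box) on either strand.
Mbd4, chr6:115853342-115853591, minus strand: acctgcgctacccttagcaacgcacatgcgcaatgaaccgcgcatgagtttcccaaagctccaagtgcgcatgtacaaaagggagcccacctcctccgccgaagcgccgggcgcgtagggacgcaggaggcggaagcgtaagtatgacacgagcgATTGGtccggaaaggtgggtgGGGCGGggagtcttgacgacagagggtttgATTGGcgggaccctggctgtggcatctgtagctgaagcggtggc
Apex1, chr14:50924894-50924948, plus strand: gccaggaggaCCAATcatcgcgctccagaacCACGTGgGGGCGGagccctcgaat
Atr, chr9:95857347-95857596, plus strand: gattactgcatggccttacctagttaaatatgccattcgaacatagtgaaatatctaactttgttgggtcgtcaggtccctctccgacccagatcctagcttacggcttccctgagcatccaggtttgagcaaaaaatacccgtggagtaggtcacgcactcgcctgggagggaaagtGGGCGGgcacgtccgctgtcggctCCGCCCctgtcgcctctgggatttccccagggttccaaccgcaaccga

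Promoters of 31 of the 39 members were in the RefSeq table. Within the 250 bases before the start, GGGCGG occurred in 20 of the 31 (64.5%), against 35.4% of the 27025 genes of that table, and CCAAT in 18 (58.1%), against 37.5%. The E2F letters TTTCGCGC or TTTGGCGC occurred in 1 member promoter (Msh3) and in 0.759% of all, the CHR letters TTTGAA in 1 (Bard1) and in 18.3% of all, CACGTG in 3 and in 6.86% of all, and the ETS letters CCGGAAGT in 1 (Ogg1) and in 3.23% of all. Both strands were searched throughout, and a GC box may overlap or adjoin another match, as beside the E box of Apex1. These matches describe the letters only.

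The question was whether repair genes change once Cre has acted on the construct. Most did not separate the groups: differences of the 38 members ran from −0.91 to 0.39 on the log2 scale, with a median of 0.07. The one gene that stood clear of the rest was Mbd4, a base excision glycosylase, whose level was 1.88-fold lower in Cre-GFP. The abasic-site nuclease Apex1 was 1.28-fold and the checkpoint kinase Atr 1.31-fold higher, with no overlap between the groups. None of the 38 passed Benjamini-Hochberg adjustment over all genes in limma, where 0% of the 12394 genes passed. At an unadjusted p under 0.05 there were 2 members higher and 1 lower, or 7.89% of the 38, against 4.84% of all genes (2.31% higher and 2.53% lower). Groups did not overlap for 6 members higher and 7 lower in Cre-GFP, together 34.2%, against 30.0% of all genes (15.2% higher and 14.9% lower). The members' share was therefore near that of all genes.

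**Figure D1:**
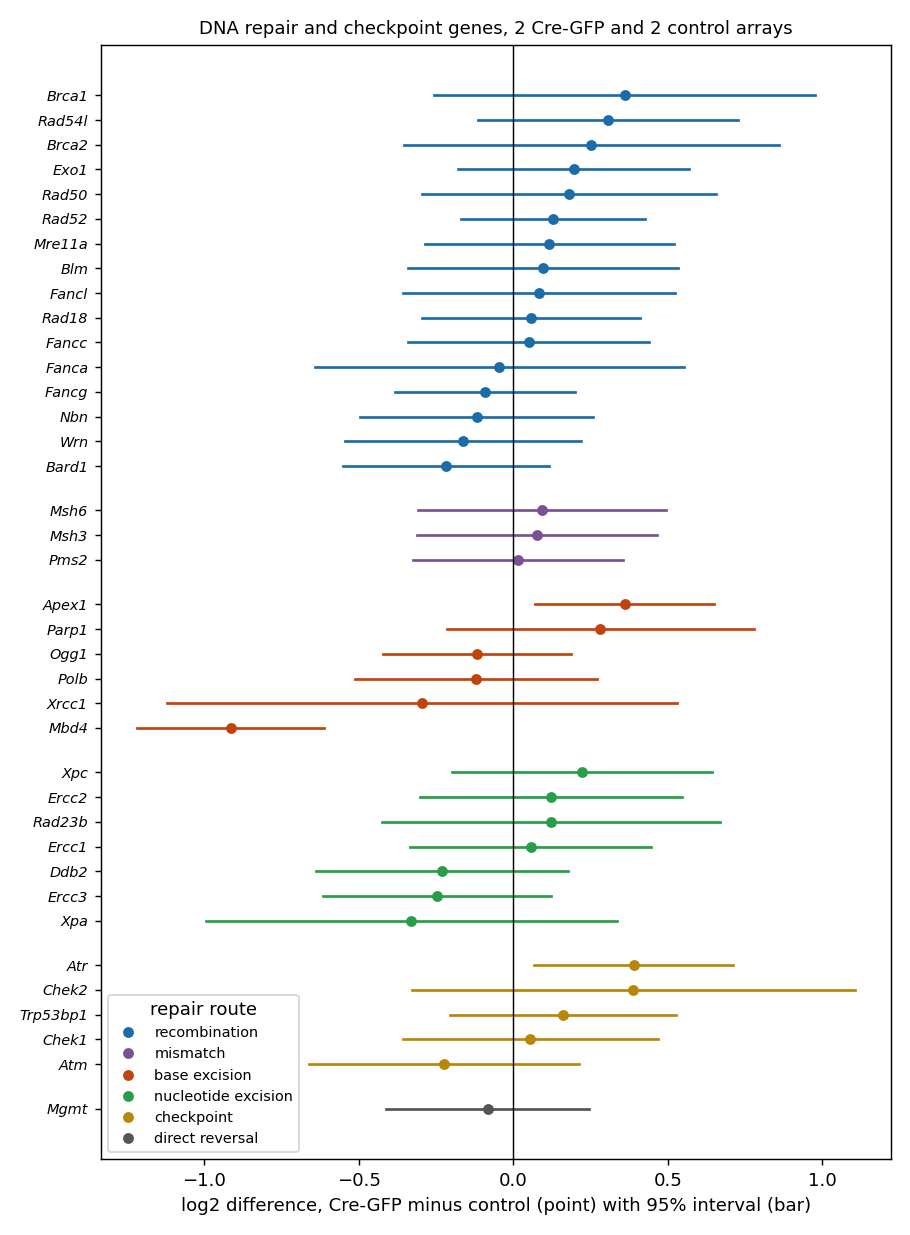
Log2 difference between Cre-GFP and control (x axis) for the 38 measured members (y axis, grouped and coloured by repair route), with points at the estimate and bars over limma's 95% interval, 2 arrays per group. The bar of Mbd4 lies wholly below 0 and those of Apex1 and Atr wholly above it, while the other 35 bars cross 0.

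Base excision repair held the member with the largest difference, Mbd4. Of its 6 measured genes, 2 were higher and 4 lower, with a median of −0.12. Mbd4 removes thymine or uracil paired with guanine at CpG sites, the products of cytosine deamination. Its log2 values were 5.96 and 5.79 in Cre-GFP arrays 1 and 2, against 6.81 and 6.77 in control arrays 1 and 2. Both Cre-GFP arrays lay well below both control arrays, and the gap between groups was several times the gap within either. The difference was −0.91 ± 0.12 (SE, n = 2 per group), the 95% interval ran from −1.22 to −0.61, and Mbd4 ranked 19 of 12394 genes by p (unadjusted p = 3.2e-04, adjusted p = 0.21 in limma). It stayed between −0.999 and −0.83 when any 1 of the arrays was dropped. Without control 1 its adjusted p was 0.047, in a fit where 135 genes passed and the lone control array was assumed to vary like the others. Mbd4 had 1 probe set, so no second probe set bears on it. Its values lay below the median of all probe sets on both Cre-GFP arrays and above that median on both control arrays.

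Marker lists of several cell types also differed between the same arrays. Of 18 measured B lineage markers 15 were lower in Cre-GFP and 11 of these did not overlap, where 14.9% of all genes were lower without overlap. Their summed intensity was 36153 to 37388 in Cre-GFP and 41276 to 51868 in control. Spib, an Ets factor of B cells, differed by −2.26 ± 0.57 and Cd79b, a B cell receptor chain, by −1.70 ± 0.43. In either direction, groups did not overlap for 66.7% of B lineage, 50% of neutrophil and granule and 38.5% of monocyte and macrophage markers. These shares were 22.2% for T lineage, 71.4% for NK, 50% for erythroid and 16.7% for mast cell and basophil markers, against 30.0% of all genes. Of 13 monocyte and macrophage markers 12 were higher, with sums of 4949 to 6893 in Cre-GFP and 2404 to 4464 in control, and Csf1r at 1.13 ± 0.34 and Apoe at 0.37 ± 0.12. Neutrophil and granule markers were higher in 8 of 12 cases, with sums of 3886 to 4598 in Cre-GFP and 1656 to 5428 in control, led by the granule enzymes Mpo (1.25 ± 0.15) and Ctsg (0.99 ± 0.15). The 6 measured erythroid markers were split, with 3 higher and 3 lower and a median of −0.0067. Their sums were 771 to 826 in Cre-GFP and 1523 to 1558 in control. That gap came from the carbonic anhydrase Car2, which read 8.61 and 8.86 in Cre-GFP against 10.21 and 10.18 in control. Car2 differed by −1.46 ± 0.18 (unadjusted p = 1.7e-04, adjusted p = 0.16 in limma) and the haem synthesis enzyme Alas2 by 0.19 ± 0.10. Sums of the T lineage list (873 to 1082 in Cre-GFP and 999 to 1577 in control), the NK list (708 to 978 in Cre-GFP and 569 to 882 in control) and the mast cell and basophil list (345 to 350 in Cre-GFP and 307 to 355 in control) overlapped. Their genes of smallest p were the T cell costimulatory receptor Cd28 (0.90 ± 0.19) and the T lineage factor Bcl11b (0.39 ± 0.09), the NK receptors Klrd1 (−0.40 ± 0.15) and Ncr1 (−0.22 ± 0.11), and the mast cell and basophil proteases Tpsb2 (0.38 ± 0.12) and Mcpt8 (−0.20 ± 0.16). These lists were split too. T lineage markers were higher in 5 cases and lower in 4, running from −1.10 to 0.90. NK markers were higher in 3 and lower in 4, from −0.40 to 0.43. Mast cell and basophil markers were higher in 3 and lower in 3. The part of these cell types in the Mbd4, Apex1 and Atr values was not tested, and in bulk RNA fewer cells of a type and less RNA per cell cannot be told apart. As a check of the label, 15 or 16 of the 18 B lineage markers read above the median of all genes on each array. The same held for 7 and 8 of 12 neutrophil and granule markers on the Cre-GFP arrays and 3 and 6 on the control arrays, for 6 or 7 of 13 monocyte and macrophage markers on each array, and for 3 or 4 of 9 T lineage markers, 1 of 7 NK markers, 2 of 6 erythroid markers and at most 1 of 6 mast cell and basophil markers.

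Apex1, the nuclease that nicks DNA at the abasic site a glycosylase leaves, read 13.24 and 13.29 in Cre-GFP arrays 1 and 2, against 12.83 and 12.98 in control arrays 1 and 2. The groups did not overlap, and the difference was 0.36 ± 0.12 (95% interval 0.07 to 0.65, unadjusted p = 0.023, adjusted p = 0.84 in limma). Its other 2 probe sets gave 0.41 and 0.42, also without overlap. Dropping any 1 array left the difference between 0.29 and 0.43. The probe set used and that at 0.42 are of a type that may match several transcripts. With such shared probe sets left out, Apex1 rested on that at 0.41 (unadjusted p = 0.059 in limma).

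Parp1, which senses single-strand breaks and recruits repair factors, and Xrcc1, the scaffold that gathers them, are given in full because of their spread, chosen after their values were seen. Parp1 read 11.67 and 11.75 in Cre-GFP arrays 1 and 2, against 11.68 and 11.17 in control arrays 1 and 2. Control 1 lay with the Cre-GFP arrays and control 2 was lower, so the difference of 0.28 ± 0.20 became 0.03 without control 2 and 0.54 without control 1. The other 2 Parp1 probe sets separated the groups without overlap. The first read 10.61 and 10.27 in Cre-GFP against 10.08 and 9.87 in control, and the second 10.97 and 10.57 in Cre-GFP against 10.43 and 9.93 in control, differences of 0.47 ± 0.19 and 0.59 ± 0.24 (unadjusted p = 0.055 and 0.052 in a limma fit of single probe sets). Xrcc1 read 9.70 and 9.09 in Cre-GFP arrays 1 and 2, against 9.28 and 10.10 in control arrays 1 and 2, with replicate gaps of 0.61 and 0.83 around a difference of −0.29 ± 0.34.

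The remaining base excision genes differed little. Ogg1, the glycosylase for oxidised guanine, differed by −0.12 ± 0.12 and Polb, the gap-filling polymerase, by −0.12 ± 0.16, both without overlap, and the other Polb probe sets gave 0.09 and 0.15. Tdg, the thymine DNA glycosylase with a substrate range close to that of Mbd4, was left out of the test because its 3 probe sets are also annotated to the pseudogenes Tdg-ps and Tdg-ps2. These probe sets differed by 0.07 ± 0.12, 0.14 ± 0.13 and 0.11 ± 0.26, all 3 estimates being above 0 where that of Mbd4 was below.

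**Figure D2:**
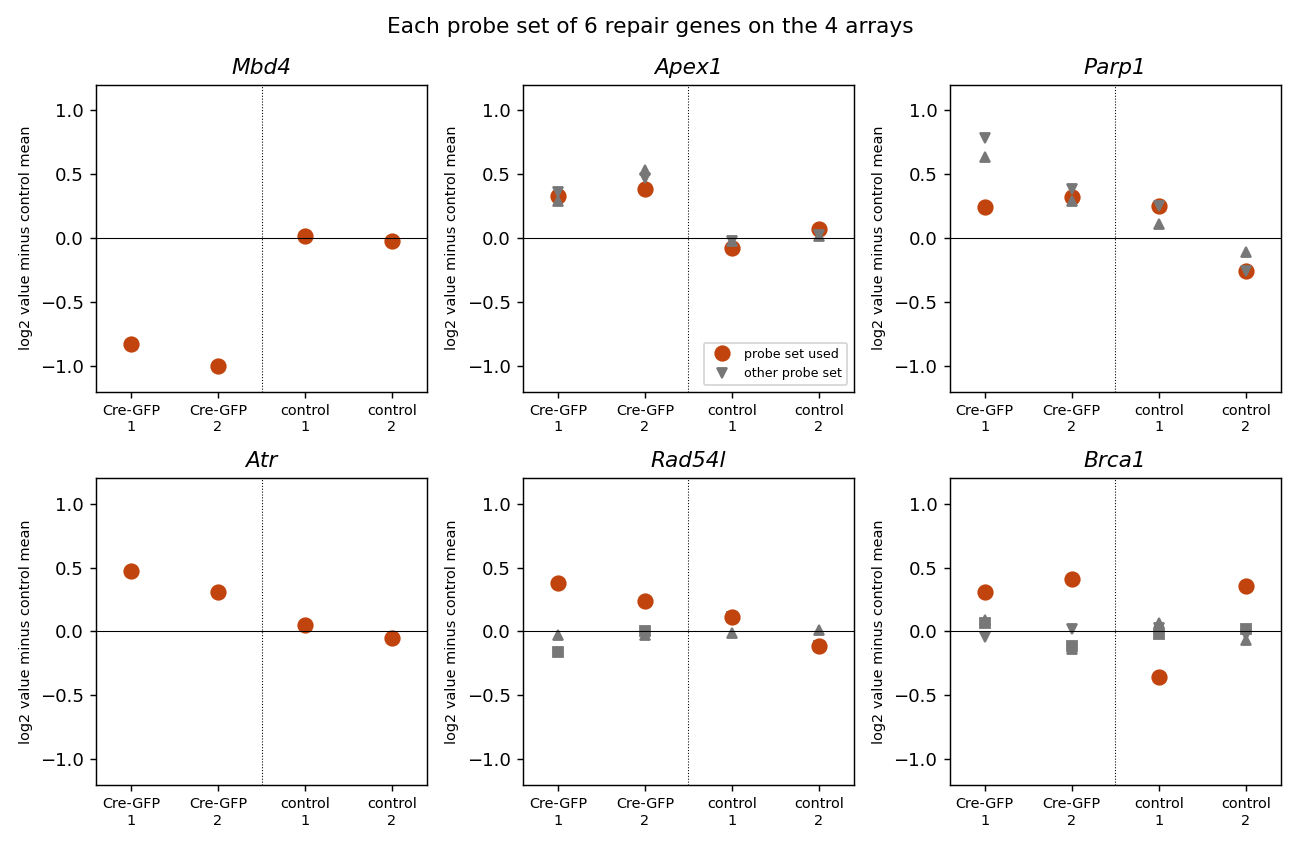
Log2 value minus the control mean (y axis) on each of the 4 arrays (x axis) for every probe set of Mbd4, Apex1, Parp1, Atr, Rad54l and Brca1, with the probe set used in red and the others in grey. Mbd4 lies far below the control mean on both Cre-GFP arrays, the 3 Apex1 probe sets lie above it together, and for Brca1 and Rad54l the other probe sets are closer to it than the one used on the Cre-GFP arrays.

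The checkpoint genes had 4 of 5 members higher, with a median of 0.16. Atr, the kinase of stalled replication forks, read 6.86 and 6.70 in Cre-GFP arrays 1 and 2, against 6.44 and 6.34 in control arrays 1 and 2. Its groups did not overlap and differed by 0.39 ± 0.13 (95% interval 0.07 to 0.71, unadjusted p = 0.025, adjusted p = 0.84 in limma), and by 0.31 to 0.47 after any 1 array was dropped. Atr had 1 probe set.

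Chek2, the kinase downstream of Atm, had nearly the same estimate as Atr, with a wider spread within each group. It read 9.29 and 8.82 in Cre-GFP arrays 1 and 2, against 9.02 and 8.31 in control arrays 1 and 2, given here after its values were seen. The groups overlapped, and the difference of 0.39 ± 0.29 was 0.03 without control 2 and 0.74 without control 1. Atm, the kinase of double-strand breaks, differed by −0.23 ± 0.18, with control 2 the highest array. Trp53bp1, a chromatin reader that favours end joining of breaks, differed by 0.16 ± 0.15 without overlap and by 0.07 on its second probe set. Chek1, the kinase activated by Atr, differed by 0.06 ± 0.17, and its other 3 probe sets lay between −0.02 and 0.08.

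Of the 16 recombination and crosslink repair genes, 11 were higher and 5 lower in Cre-GFP, with a median of 0.09. None had an unadjusted p under 0.05, and groups did not overlap for 2 higher and 2 lower (25%, against 30.0% of all genes). Control 2 was the lowest array for 10 of the 16 genes, against 3418 of all 12394 genes. The median of the route was 0.18 without control 1, 0.0025 without Cre-GFP 1 and 4.8e-04 without control 2, so its size rested on which arrays were used.

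Among the strand-exchange factors, Rad54l, a DNA translocase of homologous recombination, read 8.48 and 8.34 in Cre-GFP arrays 1 and 2, against 8.22 and 7.99 in control arrays 1 and 2. Its groups did not overlap, with a difference of 0.31 ± 0.17, but its other 2 probe sets gave −0.08 and −0.03. Brca1, the ubiquitin ligase subunit that promotes resection, read 7.70 and 7.80 in Cre-GFP arrays 1 and 2, against 7.03 and 7.75 in control arrays 1 and 2. Control 1 alone was low, so the difference of 0.36 ± 0.25 was 0.0020 without control 1 and 0.72 without control 2. The other 3 Brca1 probe sets lay between −0.02 and −0.01. Brca2, a recombination mediator, differed by 0.25 ± 0.25, Bard1, the partner of Brca1, by −0.22 ± 0.14, and Rad52, a strand annealing factor, by 0.13 ± 0.12. Bard1 was dim, and its difference was −0.024 when dim values were raised to the 20th percentile.

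The break-sensing complex of Mre11a, Rad50 and Nbn did not share a direction. Rad50 differed by 0.18 ± 0.19 and Mre11a, the nuclease, by 0.12 ± 0.16, while Nbn differed by −0.12 ± 0.15. A second Rad50 probe set gave 0.29 ± 0.11 without overlap (unadjusted p = 0.038 in a limma fit of single probe sets). That probe set was dim, at 4.18 and 4.33 in Cre-GFP arrays 1 and 2, against 4.05 and 3.89 in control arrays 1 and 2. Exo1, a nuclease of resection and mismatch repair, differed by 0.19 ± 0.15 and 0.24 ± 0.14 on its 2 probe sets, both without overlap. In the Fanconi pathway, Fanca, Fancc and Fancg of the core complex differed by −0.04, 0.05 and −0.09, and Fancl, its ubiquitin ligase, by 0.08. Rad18, the ligase that marks PCNA at stalled forks, differed by 0.06, and the helicases Blm and Wrn by 0.10 and −0.16.

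Nucleotide excision repair gave 4 genes higher and 3 lower, with a median of 0.06. Xpa, which verifies the lesion, read 5.20 and 5.45 in Cre-GFP arrays 1 and 2, against 5.23 and 6.07 in control arrays 1 and 2. Control 2 alone was high, and the difference of −0.33 ± 0.27 was 0.09 without control 2 and −0.75 without control 1, while its other probe sets gave 0.06 and −0.14. The damage sensors Xpc and Ddb2, both p53-responsive in human cells, differed in opposite directions without overlap, Xpc by 0.22 ± 0.17 and Ddb2 by −0.23 ± 0.17, with 0.04 on the second Ddb2 probe set. Rad23b, which stabilises Xpc, differed by 0.12 ± 0.22. Of the TFIIH helicases, Ercc3 differed by −0.25 ± 0.15 without overlap and Ercc2 by 0.12 ± 0.17, and Ercc1, a subunit of the incision nuclease, by 0.06 ± 0.16.

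The 3 mismatch repair genes were all within 0.1 of 0. Msh6 and Msh3, which take part in mismatch recognition, differed by 0.09 ± 0.16 and 0.08 ± 0.16, and Pms2, the nuclease subunit, by 0.01 ± 0.14. Mgmt, which takes alkyl groups directly off guanine and stood alone in its route, differed by −0.08 ± 0.13.

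**Figure D3:**
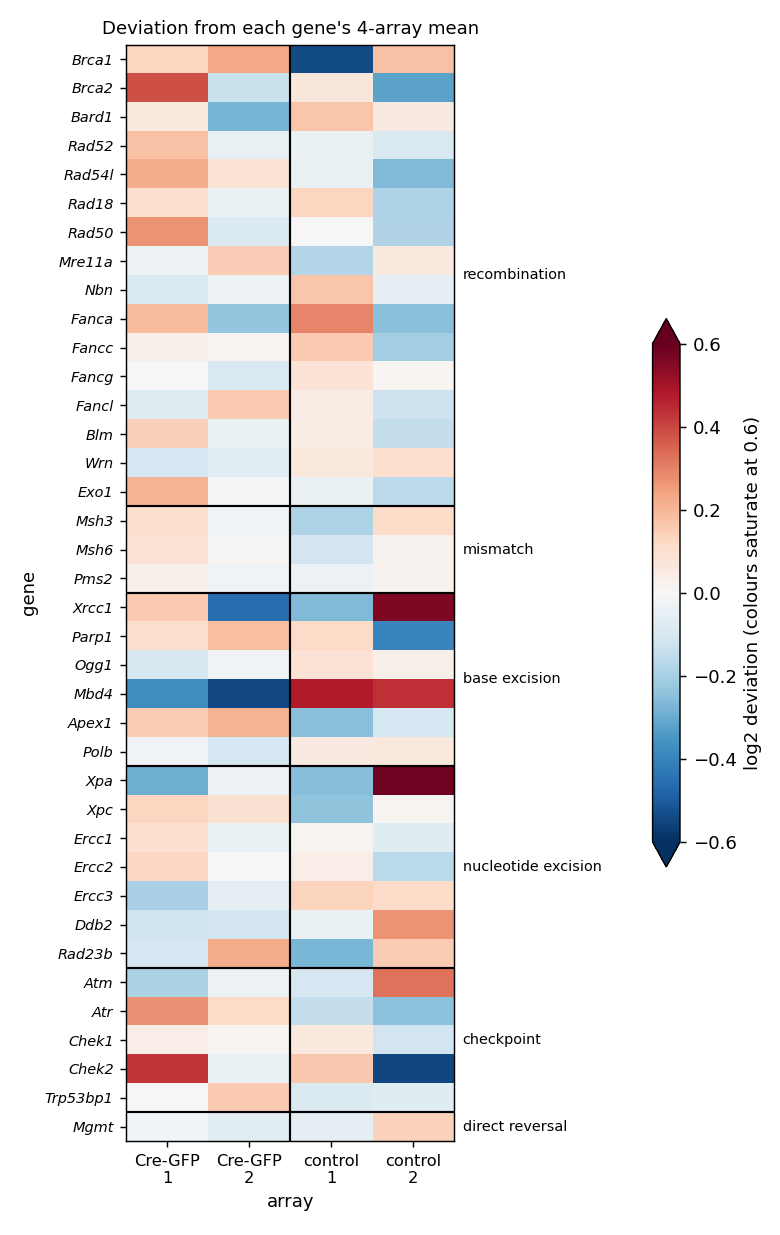
Log2 deviation of each of the 38 members (y axis, by route) from its own mean over the 4 arrays (x axis), red above and blue below the mean. Mbd4 is blue on both Cre-GFP arrays and red on both control arrays, whereas genes such as Brca1 and Xpa stand apart on a single control array.

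Set against the precision, the differences of most members were bounded. For 35 of the 38 the 95% interval lay within 1 log2 unit of 0 on both sides, 92.1% against 94.3% of all genes, and the 3 exceptions were Mbd4, Xrcc1 and Chek2. The gap between the 2 arrays of a group exceeded the group difference for 29 members, 76.3% against 80.2% of all genes. A difference over 0.3 in either direction was seen for 7 members (18.4%), against 11.0% of all genes. Where probe sets could be compared, 11 of 20 members with several probe sets had the same sign on all of them.

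**Figure D4:**
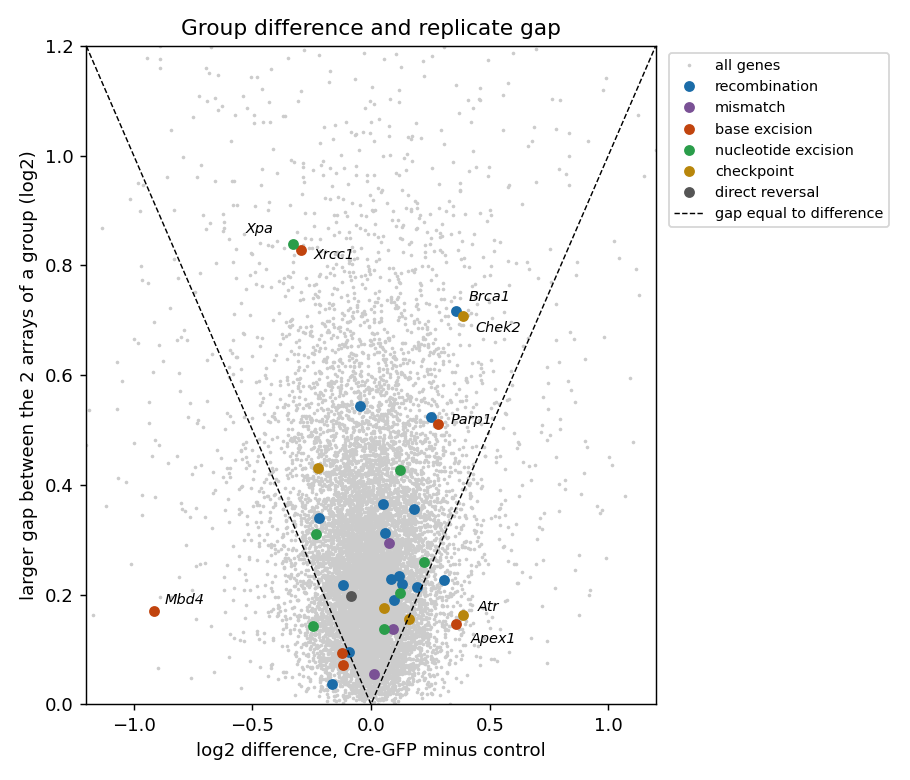
Larger of the 2 within-group gaps between arrays (y axis, log2) against the log2 difference between Cre-GFP and control (x axis) for all genes (grey) and the members (coloured by route), with both axes stopping at 1.2. Mbd4, Apex1 and Atr lie below the dashed lines where the gap equals the difference, and Brca1, Chek2, Parp1, Xpa and Xrcc1 lie above them.

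A further 93 repair gene symbols listed from general knowledge gave 60 measured genes, of which 27 were higher and 33 lower, with a median of −0.02. None had an adjusted or unadjusted p under 0.05 in limma, and groups did not overlap for 8 higher and 11 lower (31.7%, against 30.0% of all genes). The 8 with the smallest p were Ccnh, the cyclin of TFIIH (−0.36 ± 0.16), Ercc5, the nuclease that cuts 3′ of a bulky lesion (−0.35 ± 0.16), the mismatch factor Mlh3 (0.19 ± 0.09), the helicase Recql (−0.28 ± 0.17), the recombination factor Rad51c (−0.29 ± 0.18), the Fanconi subunit Fance (0.20 ± 0.14), the topoisomerase Top3a (0.20 ± 0.15) and Ddb1, the partner of Ddb2 (0.20 ± 0.16). Mlh3 was dim, at 4.86 and 4.78 in Cre-GFP arrays 1 and 2, against an identical 4.63 on both control arrays. Of other enzymes for uracil and abasic sites, named after their values were seen, Ung, the main uracil glycosylase, differed by −0.08 ± 0.21, and Apex2, the second abasic site nuclease, by −0.06 ± 0.11.

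Cell cycle genes, many of which share timing with recombination and checkpoint genes, were higher in 11 and lower in 21 of 32 cases, with a median of −0.04. None had an unadjusted p under 0.05, and groups did not overlap for 1 higher and 9 lower, together 31.2%. Of all genes 30.0% did not overlap, split into 15.2% higher and 14.9% lower, so the cell cycle list was more one-sided. The summed intensity of the cell cycle list was 62208 to 62894 in Cre-GFP and 61563 to 69091 in control. The 6 of this list with the smallest p were all lower: Ccnb2 and Ccna2, mitotic and S phase cyclins (−0.33 ± 0.17 and −0.30 ± 0.20), Ccne1, the cyclin of S phase entry (−0.27 ± 0.17), Rrm2, a ribonucleotide reductase subunit (−0.35 ± 0.21), Cenpa, the centromeric histone (−0.28 ± 0.16), and Birc5, survivin (−0.28 ± 0.19).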

How the data were processed

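Total RNA (20 ng) was amplified with the NuGen Ovation system, per the labels' protocols. The values deposited by the authors are linear RMA intensities per probe set, per the submitters' processing notes, with settings and version not given in the sources used here. RMA as usually run equalizes the arrays and compresses differences of dim genes. Median intensities were 85.1 to 87.7. The deposited values were log2-transformed without further normalization. Of 22690 probe sets, 20393 had exactly 1 symbol in the platform annotation, 691 several and 1606 none. Each of 12394 genes was represented by the probe set with the highest mean.

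The fit used lmFit and eBayes of limma 3.58.1 under R 4.3.3 (intensity trend, two-sided, Benjamini-Hochberg over all genes, threshold 0.05). The code was tested on simulated independent arrays. That simulation held no deviation shared by replicate number and no planted difference as small as those of most members. It therefore does not bear on the p-values given here. Differences are Cre-GFP minus control. Errors (±) are limma's SE, n = 2 arrays per group.

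The members and lists were chosen with earlier results of these data known. Members with an unadjusted p under 0.05, separated groups with a difference over 0.3, or probe sets of opposite sign past that size are given array by array, as are those marked as chosen after their values were seen. Up to 8 other repair genes, 6 cell cycle genes and 2 genes of each other marker list were named by smallest p. Scanner files and scan dates were not used here.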

Additional observations from a re-analysis of the deposited data

How the results depend on the processing

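No member passed adjustment and 3 had an unadjusted p under 0.05 in limma. The direction of Mbd4, Apex1 and Atr held in all 12 settings run. Mbd4 had an unadjusted p under 0.05 in all 12 (adjusted p from 0.047 to 0.98), Apex1 in 8 and Atr in 9. Settings that changed the gene's probe sets moved route medians: with the mean of a gene's probe sets, base excision was −0.047 and checkpoint 0.12, Msh3 turned to −0.0032 and Polb to 0.038, and without shared probe sets the checkpoint median was 0.082. The replicate numbers are not stated to pair samples, and replicate deviations correlated at 0.36 between groups over all probe sets. Arrays of the same number correlated across groups at 0.993 (replicate 1) and 0.991 (replicate 2). Within groups the arrays correlated at 0.992 (Cre-GFP) and 0.990 (control), so arrays were no closer within a group than within a replicate number. The main fit had no term for the replicate number. With the replicate number as a block, 4 members had an unadjusted p under 0.05, the fourth being Chek2 (0.040, adjusted p = 0.64 in limma, against 0.23 without the block), as had 1 of the other repair genes, and no gene passed adjustment. Each probe set on its own, an alternative chosen after seeing the data, gave 4 members with an unadjusted p under 0.05. When single arrays were left out, 2 to 5 members had an unadjusted p under 0.05, 0 to 1 member and 0 to 135 of all genes passed adjustment, and groups did not overlap for 11 to 19 members higher and 10 to 13 lower, as fewer arrays overlap less often. Among other repair genes these ranges were 1 to 2 (unadjusted p), 15 to 19 higher and 21 to 24 lower. Medians then ran from 0.0025 to 0.074 (members), −0.013 to 0.16 (mismatch), −0.12 to −0.034 (base excision), −0.092 to 0.021 (nucleotide excision), 0.035 to 0.15 (checkpoint) and −0.040 to 0.042 (other repair genes). The members whose sign turned ran from −0.0091 to 0.51 (Brca2), −0.099 to 0.21 (Rad18), −6.3e-04 to 0.23 (Mre11a), −0.32 to 0.23 (Fanca), −0.13 to 0.23 (Fancc), −0.031 to 0.20 (Fancl), −0.070 to 0.22 (Msh3), −0.013 to 0.041 (Pms2), −0.71 to 0.12 (Xrcc1), −0.75 to 0.090 (Xpa), −0.013 to 0.13 (Ercc1), −0.092 to 0.34 (Rad23b), −0.032 to 0.14 (Chek1) and −0.18 to 0.016 (Mgmt). The cause of these shifts was not tested beyond which array was removed. Shares of all genes by unadjusted p or by overlap were not worked out for the alternative settings or with an array left out. The member counts by unadjusted p or overlap in those fits therefore cannot be judged against all genes. With 4 arrays the median 95% interval of a member reached 0.40 to either side, and signal over background was not assessed here.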

Other observations

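Several repair genes share a start region with a gene on the opposite strand. Within 1000 bases the RefSeq table placed a divergent gene before 9 members, and 5 of these neighbours were measured. Osgep, an enzyme of tRNA modification whose start lies 56 bases from that of Apex1, read 8.66 and 9.22 in Cre-GFP arrays 1 and 2, against 7.75 and 8.94 in control arrays 1 and 2, a difference of 0.60 ± 0.41 with overlapping groups. Nbr1, an autophagy receptor 152 bases from Brca1, differed by 0.10 ± 0.18, Ankrd49, 81 bases from Mre11a, by 0.05 ± 0.19, and Aimp2, a scaffold of tRNA synthetases 162 bases from Pms2, by 0.11 ± 0.19.

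Pinlyp, 694 bases from Xrcc1, read 4.87 and 4.48 in Cre-GFP arrays 1 and 2, against 4.98 and 6.15 in control arrays 1 and 2, a difference of −0.89 ± 0.37 (unadjusted p = 0.052, adjusted p = 1.0 in limma). Control 2 was the highest array for Pinlyp and for Xrcc1, and Cre-GFP 2 the lowest for both. Pinlyp lay below the median of all probe sets on each of the 4 arrays, and whether the pair varies together was not tested.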
